A study of Mus musculus with 6 samples.

Results

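The Toll-like receptors are 10 genes here, Tlr1 to Tlr9 and Tlr13, read by their symbols from a table of 24054 genes. All 10 were found. RNA had been sequenced from c-Kit+ splenocytes of 6 mice, 1 library per mouse, collected with magnetic beads against CD117. All 6 mice carried an internal tandem duplication on both alleles of Flt3 (Flt3ITD/ITD). In the AML group (acute myeloid leukemia), 3 moribund mice were Dnmt3afl/- with MxCre, and in the MPN group (myeloproliferative neoplasm) 3 control mice were Dnmt3afl/fl, with no Cre in their titles. MxCre is Cre recombinase under the Mx1 promoter, which interferon induces in many cell types. Ages and any induction of Cre are not given in the labels, and genotype, Cre and disease differ together between the groups.

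Toll-like receptors are membrane proteins of innate immunity that recognise molecules of microbes. Those at the cell surface bind lipoproteins, lipopolysaccharide or flagellin. Those in endosomes bind RNA or DNA and need the membrane protein Unc93b1 to get there. On binding, the receptors recruit adaptors such as Myd88 and Ticam1, which start kinase cascades that activate NF-kappaB and interferon regulatory factors. In blood they are known best from macrophages, monocytes, dendritic cells, neutrophils and B cells, and some are also present on stem and progenitor cells.

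In the AML mice, 7 of the 10 receptors fell and none rose. The change ranged from a near loss of Tlr1, at 3.77% of its MPN mean, to 61.4% of the MPN mean for Tlr2. Tlr3, Tlr4 and Tlr7 did not pass. Levels are in TPM (transcript abundance scaled to length and to a fixed library total). The test was limma on log2(TPM + 1), adjusted over 12223 tested genes, with a threshold of 0.05. Of all tested genes, 10% were called lower in AML and 20.1% higher, 30.1% in either direction. The 7 receptors are also the ones whose groups did not overlap, with every AML mouse below every MPN mouse, which held for 16.1% of all tested genes. Groups did not overlap in either direction for 50.9%. Tlr5 and Tlr8 reached 1 TPM in the MPN mice only and entered the test through that group.

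The calls were not equally firm. With any 1 of the MPN mice left out, 3 receptors passed, namely Tlr1, Tlr5 and Tlr9. MPN replicate 1 was also the only library of its sequencing run. With a term for sex, 1 passed, Tlr1. That fit compares AML replicate 3 with the MPN mice, since by Xist (186 and 194 TPM, against 0.06 TPM or less in the others) the other AML mice were female. Tlr7, Tlr8 and Tlr13 are X-linked.

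**Figure D1:**
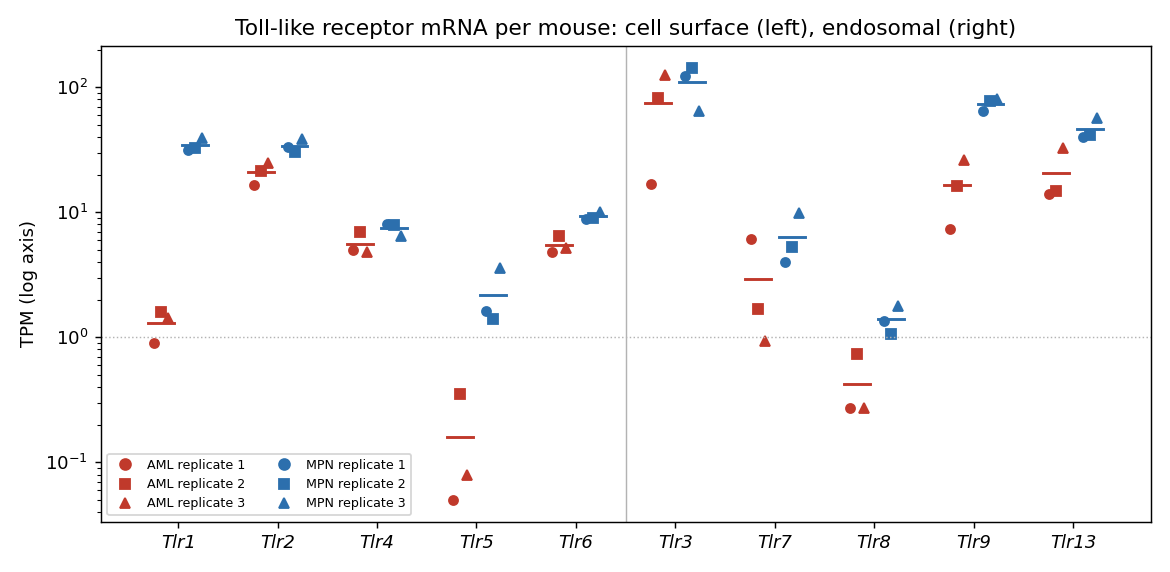
TPM on a log axis for each receptor in each mouse. Red marks are AML, blue marks MPN, shapes give the replicate, short lines the group means, and the dotted line 1 TPM. Tlr1 lies at 0.9 to 1.58 TPM in AML and 31.34 to 39.4 TPM in MPN, while Tlr3, Tlr4 and Tlr7 overlap.

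As a check of the labels, Dnmt3a measured 11.51, 13.5 and 12.9 TPM in the AML mice, all below the MPN mice with 33.91, 29.28 and 33.35 TPM. Kit, the marker used for selection, ranged over 99.2 to 129.71 TPM in AML and over 144.71 to 152.03 TPM in MPN. Between 11780 and 12034 genes reached 1 TPM per library. TPM keeps no depth, so read counts behind each value are unknown.

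In several lists of mature cell markers, though not in that of mast cells and basophils, many genes were also called lower in AML. Beside the counts that follow, 10% of all tested genes were called lower in AML and 20.1% higher. Of the markers tested for each cell type, 7 of 9 fell for macrophages, 6 of 8 for monocytes, 7 of 10 for mature neutrophils, 6 of 7 for B cells, 5 of 7 for plasmacytoid dendritic cells and 8 of 8 for T and NK cells. For mature neutrophils, Cxcr2, Retnlg and Csf3r did not pass, with log2 fold changes of 0.11, -0.33 and -0.36. For conventional dendritic cells, 3 of 8 fell and Flt3 rose. Several of these counts depended on single MPN mice. Without MPN replicate 1 or 3, 2 of 10 neutrophil and 3 of 8 monocyte markers passed, and without replicate 2, 6 and 4. Without replicate 2 or 3, 3 of 7 plasmacytoid markers passed. With any 1 MPN mouse left out, Cd209a alone of the conventional dendritic list fell and the Flt3 call ended. With a term for sex, 2 neutrophil, 3 monocyte, 2 plasmacytoid, 1 conventional dendritic and 5 T and NK cell markers fell, and with no filter 3 neutrophil and 1 conventional dendritic. Macrophage counts were 5 to 8 and B cell counts 4 to 6 over all alternatives. Summed over each list, macrophage markers reached 19.98 to 37.12 TPM in AML and 109.42 to 201.68 TPM in MPN, and B cell markers 33.48 to 47.95 against 101.24 to 134.86 TPM. The plasmacytoid list spanned 303.45 to 1219.21 TPM in AML and 1012.61 to 1267.28 TPM in MPN, most of it Irf8. Siglech of that list was at most 0.06 TPM in AML and 2.27 to 6.86 TPM in MPN. Irf8 and Tcf4 did not pass, and Bst2 was at 76.35 to 101.71 TPM in AML against 151.14 to 222.53 TPM in MPN. The conventional dendritic list spanned 261.77 to 800.45 against 1249.76 to 1471.2 TPM. Monocyte and neutrophil sums were 539.1 to 1534.35 and 6896.19 to 20661 TPM in AML, against 1005.01 to 1167.27 and 30452.2 to 48287.9 TPM in MPN. The T and NK cell sum was 3.48 to 7.46 against 178.75 to 294.7 TPM. In MPN most of that sum was Klrd1 (107.46 to 198.04 TPM), followed by Cd8a and Cd4. Cd3d, Cd3e, Cd3g, Ncr1 and Gzma were each at 5.23 TPM or less in every MPN mouse. C1qb, Mertk, Marco and Siglec1 of macrophages, and Ms4a1, Pax5, Cd22 and Blk of B cells, were below 1 TPM in every AML mouse. Some of these were low in MPN too. Marco (0.76 to 1.18 TPM) and Pax5 (0.66 to 1.24 TPM) were below the filter, and Mertk and Siglec1 reached at most 2.3 and 1.42 TPM. Other members stayed above 1 TPM in every AML mouse, among them Emr1 (5.4 to 17.95 TPM) and Cd79b (26.05 to 33.94 TPM), which did not pass. The part of these cells in the receptor values was not tested. In bulk RNA, fewer cells of a type and less RNA per cell cannot be told apart.

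The stem and progenitor list went the other way, with 7 of 8 markers higher in AML and Kit not passing. Of all tested genes, 20.1% were called higher in AML and 10% lower. Mast cell and basophil markers had 3 of 5 higher and none lower. Gata2, among these 3, is also counted in the stem and progenitor list. With a term for sex, 5 stem and progenitor markers rose, and 2 mast cell and basophil markers rose while Prss34 fell.

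Promoter sequence is shown for the receptor that fell most, Tlr1, for the endosomal receptors Tlr9 and Tlr13 that fell with it, and for Tlr3, which did not pass. Windows run from 250 bases before to 50 bases after a RefSeq start site (GRCm38.p6), on the gene's own strand. Capitals mark matches to any of 4 short motifs on either strand, namely GAGGAA, bound by the myeloid factor PU.1, the interferon element ISRE (GAAA, any 2 bases, GAAA), a form of the NF-kappaB site (GGGA, any 2 bases, TTCC), and TTCNNNGAA, bound by STAT factors.
Tlr1, chr5:64933509-64933808, minus strand: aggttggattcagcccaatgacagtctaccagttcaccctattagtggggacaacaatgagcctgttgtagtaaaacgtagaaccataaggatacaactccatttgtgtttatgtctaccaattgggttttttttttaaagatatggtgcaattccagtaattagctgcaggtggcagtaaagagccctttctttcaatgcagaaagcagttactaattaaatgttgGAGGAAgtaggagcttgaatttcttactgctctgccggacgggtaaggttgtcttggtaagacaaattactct
Tlr9, chr9:106222348-106222647, plus strand: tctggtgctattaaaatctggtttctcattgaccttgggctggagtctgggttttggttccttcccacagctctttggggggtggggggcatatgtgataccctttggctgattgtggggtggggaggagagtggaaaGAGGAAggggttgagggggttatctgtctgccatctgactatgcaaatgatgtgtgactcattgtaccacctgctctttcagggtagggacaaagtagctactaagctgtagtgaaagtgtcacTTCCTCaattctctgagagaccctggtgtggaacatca
Tlr13, chrX:106143025-106143324, plus strand: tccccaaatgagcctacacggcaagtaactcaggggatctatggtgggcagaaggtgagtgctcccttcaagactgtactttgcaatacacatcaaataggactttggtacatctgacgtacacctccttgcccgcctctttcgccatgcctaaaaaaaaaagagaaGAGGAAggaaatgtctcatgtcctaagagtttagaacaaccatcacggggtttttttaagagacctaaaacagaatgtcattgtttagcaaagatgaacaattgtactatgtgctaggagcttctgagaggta
Tlr3, chr8:45410331-45410630, minus strand: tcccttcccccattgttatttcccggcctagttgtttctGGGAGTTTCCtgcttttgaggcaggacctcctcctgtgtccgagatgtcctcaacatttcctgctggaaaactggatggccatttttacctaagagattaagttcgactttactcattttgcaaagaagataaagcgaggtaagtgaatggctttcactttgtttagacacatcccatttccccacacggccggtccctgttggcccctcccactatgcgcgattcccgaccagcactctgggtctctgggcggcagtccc

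The Tlr1 window held 1 GAGGAA, beginning 23 bases before the start site, the Tlr13 window 1, beginning 83 bases before it, and the Tlr9 window 2. The Tlr3 window held 1 match to the NF-kappaB form. RefSeq windows were found for 8 of the 10 receptors, 10 windows in all, with a further start for Tlr1 and for Tlr6. GAGGAA occurred in 4 of the 10 windows, against 28.3% of 32851 mouse windows of the same length. The Tlr8 window was among these. The windows of Tlr2, Tlr5 and Tlr6, receptors that also fell, held none, nor did that at the further Tlr1 start. The interferon element occurred in 1 of 10, at the further start of Tlr6 and as a pair of overlapping matches, against 3.44% of all windows. The STAT motif occurred in 3 of 10 (8.3% of all windows) and the NF-kappaB form in 1 of 10 (1.47%). The windows held 0 to 11 CpG, the dinucleotide that Dnmt3a methylates, and the Tlr9 window none. Their median of 6 was near that of all mouse windows, 7, with quartiles at 3 and 20. A match is a description of these letters only.

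Among cell surface receptors, Tlr1 fell most. Tlr1 pairs with Tlr2 to bind triacylated lipoproteins (ENSMUSG00000044827, chromosome 5, 64924679 to 64933563, minus strand, GRCm38). AML replicates 1 to 3 gave 0.9, 1.58 and 1.42 TPM, and MPN replicates 1 to 3 gave 31.34, 32.58 and 39.4 TPM. Each AML mouse was far below each MPN mouse, and the mice of a group lay close together. Tlr1 fell by 3.95 ± 0.18 (SE) on the log2 scale, with a limma adjusted p of 0.000114. It passed under all 16 alternative analyses, between -4.65 and -2.64 on the log2 scale. In the RPKM table, where values are read density per gene length, scaled to the library, the AML mean of Tlr1 was 5.89% of MPN.

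Tlr2, the shared partner of Tlr1 and Tlr6, gave 16.49, 21.3 and 24.7 TPM in the AML mice, against 33, 30.06 and 38.78 TPM in the MPN mice (chromosome 3, 83836272 to 83841767, minus strand). The groups came near each other, with 24.7 TPM in AML replicate 3 and 30.06 TPM in MPN replicate 2. Its log2 fold change was -0.69 ± 0.18 (SE), with a limma adjusted p of 0.0263. The call ended without AML replicate 2 (limma adjusted p = 0.0569), without MPN replicate 1, 2 or 3 (0.0716, 0.0558 and 0.0845) and in the sex fit (0.316).

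Tlr6 pairs with Tlr2 to bind diacylated lipoproteins and lies 18.5 kb from Tlr1 (chromosome 5, 64952031 to 64960097, minus strand). Its AML values were 4.83, 6.43 and 5.14 TPM and its MPN values 8.78, 8.99 and 10.1 TPM. The groups were separate and the spread within each was small. Tlr6 fell by 0.68 ± 0.17 (SE) on the log2 scale, with a limma adjusted p of 0.0209. The call ended without MPN replicate 1, 2 or 3 (limma adjusted p = 0.0584, 0.0793 and 0.0608) and in the sex fit (0.129), while the fold change stayed between -0.78 and -0.45 over all alternatives.

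The balance of the Tlr2 partners turned over. In TPM, Tlr1 over Tlr6 was 3.569, 3.624 and 3.901 in the MPN mice and 0.1863, 0.2457 and 0.2763 in the AML mice. Tlr1 was therefore the more abundant partner in each MPN mouse and the less abundant in each AML mouse. In RPKM the ratio was 2.858 to 3.269 in MPN and 0.301 to 0.5098 in AML. Tlr6 over Tlr2 averaged 0.2676 ± 0.05175 in AML and 0.2752 ± 0.02087 in MPN by TPM (SD, n = 3), with overlapping values. By RPKM it was 0.2718 ± 0.06191 against 0.3555 ± 0.02406, and the groups did not overlap. These ratios are descriptions and were given no test. Tlr1 and Tlr6 are close copies, and of the 75-base words in their GENCODE M21 transcripts, 10.6% of those of Tlr1 and 9.25% of those of Tlr6 also occur in another gene's transcripts, 340 of them shared by the pair. How reads in that stretch were divided is set by the authors' processing.

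Tlr5, the receptor of bacterial flagellin, was low in all mice (chromosome 1, 182954788 to 182976044, plus strand). The AML mice had 0.05, 0.35 and 0.08 TPM, and the MPN mice 1.61, 1.4 and 3.58 TPM. MPN replicate 3 stood above the other MPN mice. On the log2 scale it fell by 1.41 ± 0.28 (SE), with a limma adjusted p of 0.00932, and the log2(TPM + 1) scale understates it at such levels. Only the sex fit ended the call (limma adjusted p = 0.0650). Tlr5 was below the filter in the RPKM table and with a filter at 5 TPM.

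Tlr4, the lipopolysaccharide receptor, did not pass (chromosome 4, 66827584 to 66930284, plus strand). Values were 5, 6.91 and 4.84 TPM for the AML mice and 8.06, 7.89 and 6.46 TPM for the MPN mice, with AML replicate 2 above MPN replicate 3. Its log2 fold change was -0.37, with a 95% confidence interval of -0.81 to 0.06 and a limma adjusted p of 0.166. It passed under none of the 16 alternatives (limma adjusted p of 0.0534 to 0.370).

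**Figure D2:**
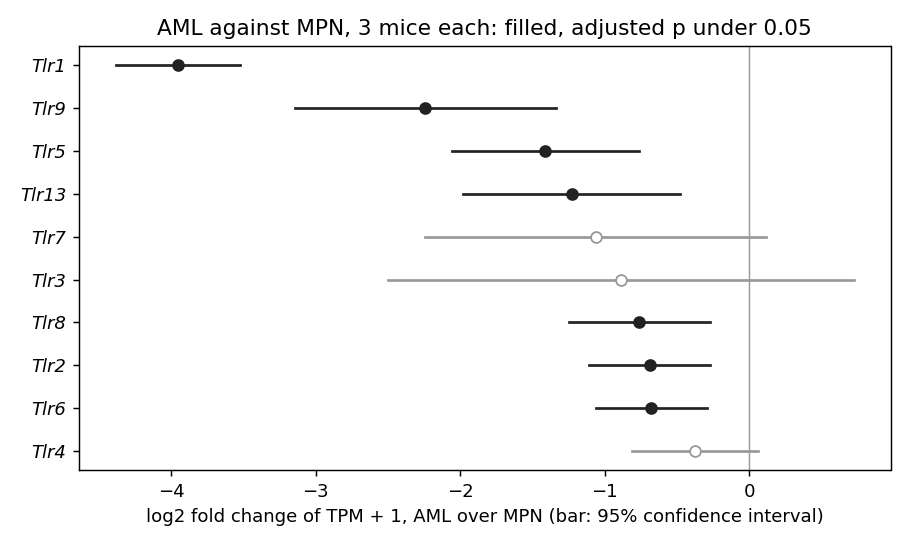
Log2 fold change of TPM + 1, AML over MPN, for the 10 receptors, with 95% confidence intervals from 3 mice per group. Filled points passed the adjusted threshold. Tlr1 lies furthest from 0 at -3.95, and the intervals of Tlr3, Tlr4 and Tlr7 include 0.

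Of the endosomal receptors, Tlr9 fell most. Tlr9 binds DNA with unmethylated CpG and is known from plasmacytoid dendritic cells and B cells (ENSMUSG00000045322, chromosome 9, 106222598 to 106226883, plus strand). AML values were 7.33, 16.35 and 26.12 TPM and MPN values 64.5, 77.1 and 79.88 TPM. Every AML mouse was well below the MPN mice, yet the AML mice differed among themselves by 3.56-fold. Tlr9 fell by 2.24 ± 0.39 (SE) on the log2 scale, with a limma adjusted p of 0.00579. The call held without any 1 mouse and ended in the sex fit, at -1.46 (limma adjusted p = 0.0582).

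Tlr13, a receptor of bacterial ribosomal RNA, lies on the X chromosome (106143204 to 106160493, plus strand). The AML mice gave 13.91, 14.7 and 32.8 TPM, the MPN mice 40.19, 41.62 and 56.93 TPM. AML replicate 3 came near the MPN mice and the others did not. It fell by 1.23 ± 0.32 (SE) on the log2 scale, with a limma adjusted p of 0.0267. The call ended under 7 of 16 alternatives, namely without AML replicate 1 or 2, without MPN replicate 1, 2 or 3, with no filter, and with a term for sex (limma adjusted p of 0.0509 to 0.296). With the term for sex the log2 fold change was -0.47.

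Tlr7 and Tlr8, receptors of single-stranded RNA, are neighbours on the X chromosome, 40.6 kb apart (167304929 to 167330558 and 167242696 to 167264329, both on the minus strand). For Tlr7 the AML mice had 6.15, 1.68 and 0.93 TPM and the MPN mice 3.97, 5.27 and 9.82 TPM. AML replicate 1 lay inside the MPN range and the other AML mice below it. The log2 fold change was -1.06, with a 95% confidence interval of -2.24 to 0.12 and a limma adjusted p of 0.147. Tlr7 passed without AML replicate 1 (log2 fold change -1.61, limma adjusted p = 0.0170) and with array weights (-1.20, limma adjusted p = 0.0120).

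For Tlr8 the AML values were 0.27, 0.73 and 0.27 TPM and the MPN values 1.36, 1.06 and 1.78 TPM. All values were low, and the groups were separate. It fell by 0.76 ± 0.21 (SE) on the log2 scale, with a limma adjusted p of 0.0311. The call ended without AML replicate 1 or 3 and without any MPN mouse (limma adjusted p of 0.0579 to 0.0926), with array weights (0.0557) and in the sex fit (0.120). The AML share of the MPN level was 30.2% in TPM and 30.5% in RPKM. The level itself depended on the table: Tlr8 was lowest of the receptors in MPN by TPM, and by RPKM stood in place 6 of 10, above Tlr7. Its TPM was 0.396 of its RPKM in MPN, while for the other 9 receptors TPM was 2.78 to 4.83 times RPKM.

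Tlr3 binds double-stranded RNA and signals through Ticam1 (ENSMUSG00000031639, chromosome 8, 45395665 to 45411080, minus strand). By group mean it was the most abundant of the 10 in both groups, though in MPN replicate 3 Tlr9 was higher (79.88 TPM). Tlr3 did not pass. AML values were 16.71, 81.88 and 125.88 TPM, and MPN values 122.5, 143.45 and 65.03 TPM. AML replicate 1 was far below all other mice, and AML replicates 2 and 3 lay above MPN replicate 3. The log2 fold change was -0.89, with a 95% confidence interval of -2.50 to 0.72 and a limma adjusted p of 0.355. Without AML replicate 1 the log2 fold change was -0.04 (limma adjusted p = 0.940), and with a term for sex it turned to 0.26. The antisense gene Gm45542 covers part of its exons. The libraries were stranded, but no source used here says whether strand was used in counting.

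Each receptor was also set by level. In MPN the order by mean TPM was Tlr3 (110), Tlr9 (73.8), Tlr13 (46.2), Tlr1 (34.4), Tlr2 (33.9), Tlr6 (9.29), Tlr4 (7.47), Tlr7 (6.35), Tlr5 (2.20) and Tlr8 (1.40). The ranges over mice overlapped for the neighbours Tlr3 and Tlr9, Tlr1 and Tlr2, Tlr4 and Tlr7, and Tlr5 and Tlr8. In AML the order was Tlr3 (74.8), Tlr2 (20.8), Tlr13 (20.5), Tlr9 (16.6), Tlr4 (5.58), Tlr6 (5.47), Tlr7 (2.92), Tlr1 (1.30), Tlr8 (0.423) and Tlr5 (0.160). There, the ranges were apart only between Tlr9 and Tlr4 and between Tlr1 and Tlr8. Tlr1 went from place 4 to place 8.

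Summed over the 10 receptors, TPM was 71.64, 151.91 and 222.18 in AML replicates 1 to 3 and 315.31, 349.42 and 311.76 in MPN replicates 1 to 3. All AML sums were lower than all MPN sums. The AML mice spread widely and the MPN mice little. Without Tlr3 the sums were 54.93, 70.03 and 96.3 against 192.81, 205.97 and 246.73 TPM. Endosomal receptors made up 61.9%, 75.9% and 83.7% of the AML sums and 73.7%, 76.8% and 68.5% of the MPN sums, so that the groups overlapped. Tlr1 made up 0.978% ± 0.313 in AML and 10.6% ± 1.76 in MPN (SD, n = 3), and Tlr9 10.9% ± 0.774 and 22.7% ± 2.64.

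**Figure D3:**
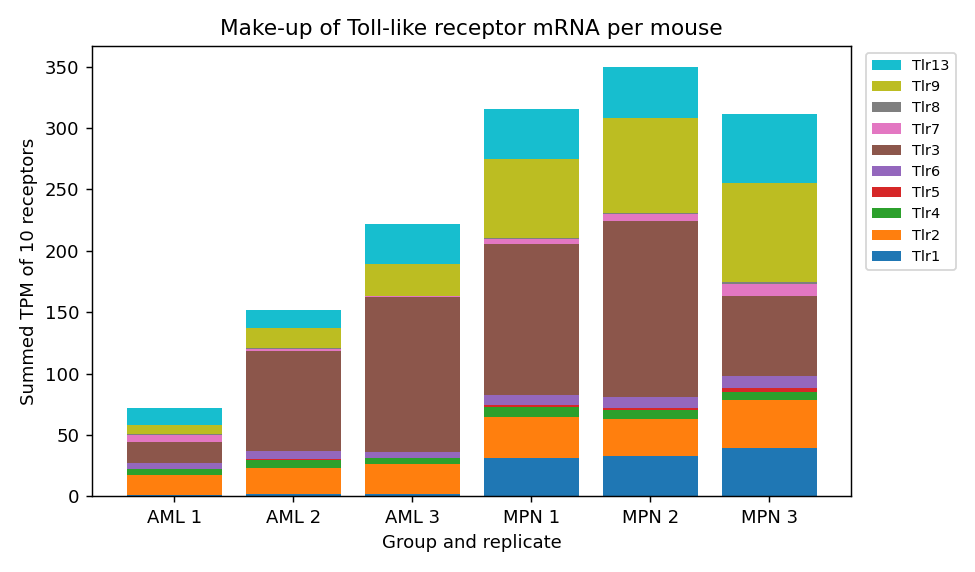
Summed TPM of the 10 receptors in each mouse, stacked by receptor with Tlr1 at the bottom. The sums reach 71.64 to 222.18 TPM in AML and 311.76 to 349.42 TPM in MPN, and the Tlr1 and Tlr9 segments take smaller shares in AML.

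The AML mice were not alike. AML replicate 1 held the lowest AML value of 8 of the 10 receptors, counting a tie for Tlr8, and the highest of 1, Tlr7. AML replicate 3 held the lowest value of Tlr4 and Tlr7. Relative to the MPN mean on the log2(TPM + 1) scale, the median over receptors was -1.27 in AML replicate 1, -0.91 in replicate 2 and -0.83 in replicate 3. AML replicate 1 also had the lowest sums of the macrophage, monocyte, neutrophil, B cell and both dendritic cell lists among all mice. The part of those cells in its receptor values was not tested. Without AML replicate 1, 6 receptors were called lower, with Tlr7 gained and Tlr8 and Tlr13 lost.

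**Figure D4:**
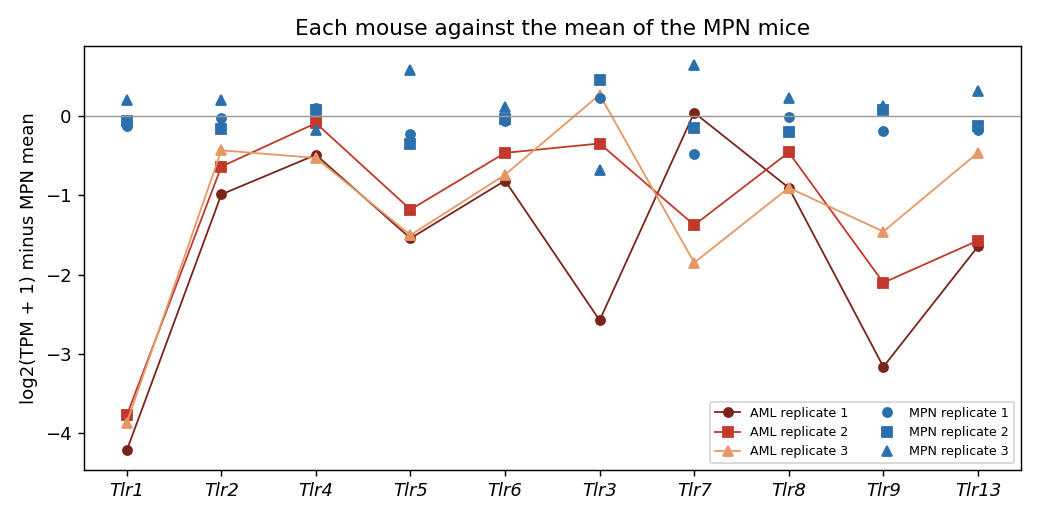
Log2(TPM + 1) of each receptor in each mouse minus the mean of the MPN mice. Lines join the receptors of each AML mouse, and blue marks show the MPN mice. The AML mice lie together for Tlr1 and apart for Tlr3, Tlr7 and Tlr9.

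Tlr11 and Tlr12, further receptors of the family in the table, which bind profilin of protozoa and need Unc93b1, lay outside the list of 10. Tlr11 averaged 67.4 ± 46.4 TPM in AML and 189 ± 58.0 TPM in MPN (SD, n = 3), above Tlr3 in MPN, and did not pass (log2 fold change -1.77, limma adjusted p = 0.0686). Tlr12 fell from 44.1 ± 12.0 to 11.4 ± 4.11 TPM (log2 fold change -1.89, limma adjusted p = 0.00456). Neither gene was followed through the alternative analyses, so how firm these results are is not known.

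Genes around the receptors did not move evenly. Of 69 tested genes in 7 lists of the pathway, 21 fell, 4 rose and 44 did not pass, with a median log2 fold change of -0.34 against 0.13 over all tested genes. Of all tested genes, 10% were called lower and 20.1% higher, the shares to set beside this count and those of each list below. Of 6 co-receptors and relatives, 2 fell, 1 rose and 3 did not pass (median -0.63). Ly86, which pairs with Cd180, fell from 298 ± 45.4 to 74.1 ± 31.0 TPM (SD, n = 3, as for the means below; limma adjusted p = 0.00345). Cd180, a relative of Tlr4 known from B cells, fell from 129 ± 30.5 to 46.8 ± 23.2 TPM (limma adjusted p = 0.0268), and that call ended without any 1 MPN mouse, with no filter and with a term for sex. Cd14, which hands lipopolysaccharide to Tlr4, rose from 3.78 ± 0.803 to 7.06 ± 1.73 TPM (limma adjusted p = 0.0456), a call that ended under 11 of 16 alternatives.

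Of 11 tested genes for chaperones, transport and cutting of the receptors, 6 fell, Ctsl rose and 4 did not pass (median -0.86). With a term for sex 4 fell and the Ctsl call ended. Slc15a3, an endosomal peptide transporter, fell from 18.3 ± 4.10 to 1.26 ± 0.564 TPM (log2 fold change -3.10, limma adjusted p = 0.000339). Lgmn, an endosomal protease that cuts Tlr9, fell from 36.3 ± 10.2 to 6.46 ± 1.04 TPM (limma adjusted p = 0.000569). Ctsb, a cathepsin, fell from 183 ± 11.2 to 100 ± 10.2 TPM (limma adjusted p = 0.00213). Unc93b1, the carrier, fell from 553.37, 583.57 and 538.75 TPM in MPN to 145.02, 270.35 and 440.24 TPM in AML, with the AML mice far apart. Its limma adjusted p was 0.0496, and the call ended under 11 of 16 alternatives. The surface receptor chaperones Hsp90b1 and Cnpy3 did not pass, with log2 fold changes of -0.33 and -0.43.

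Few of the adaptors and none of the kinases passed. Of 5 TIR adaptors tested, 1 fell, Pik3ap1, which links receptors to PI3 kinase, with 49.1 ± 12.1 TPM against 98.7 ± 9.84 TPM (limma adjusted p = 0.00746). Myd88, the main adaptor, averaged 103 ± 25.9 and 114 ± 10.3 TPM in the AML and MPN mice (log2 fold change -0.17, limma adjusted p = 0.500). Ticam1, the adaptor of Tlr3, averaged 19.4 ± 6.19 and 27.0 ± 0.932 TPM (limma adjusted p = 0.126), and Ticam2, which links Tlr4 to Ticam1, 12.6 ± 5.16 and 20.0 ± 6.39 TPM (limma adjusted p = 0.146). The Pik3ap1 call ended with a term for sex, Ticam2 passed without AML replicate 2, and Ticam1 passed without AML replicate 3. Of 18 kinases and ubiquitin ligases, limma called 0, and 3 had an unadjusted p under 0.05. Their log2 fold changes lay between -0.61 and 0.60 with a median of 0.06. The smallest p-values were those of Peli1 (-0.39), a ubiquitin ligase, Map3k8 (-0.61), a kinase upstream of ERK, and Irak2 (-0.57), a receptor-proximal kinase. With array weights 5 of the 18 passed, 4 lower and 1 higher, and without AML replicate 3, 3 passed, all lower. Scaling by the median gave 2, quantile normalization 1, the RPKM values 1 and the other 11 alternatives 0.

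Of 10 transcription factors of the pathway tested, 5 fell and 5 did not pass (median -1.04). The NF-kappaB subunit genes Rel, Relb and Nfkb2 fell, from 43.5 ± 2.69 to 14.1 ± 0.276, from 90.1 ± 28.2 to 11.8 ± 1.08 and from 93.8 ± 18.3 to 28.3 ± 2.21 TPM (limma adjusted p of 0.000267, 0.000272 and 0.000546). Nfkb1 and Rela did not pass, with log2 fold changes of 0.02 and -0.09. The interferon-related factors Irf7 and Irf1 fell by 3.80 and 1.40 on the log2 scale (limma adjusted p of 0.00407 and 0.00531), and the Irf7 call ended with a term for sex. Of 10 negative regulators, 2 fell, Tnfaip3 and Cyld, both enzymes that remove ubiquitin, and 8 did not pass (median -0.40). Tnfaip3 fell from 38.9 ± 9.48 to 11.5 ± 3.65 TPM and Cyld from 32.9 ± 1.78 to 21.4 ± 1.03 TPM (limma adjusted p of 0.00426 and 0.00984). Without AML replicate 1, 4 fell, Nfkbia and Il1rl1 being added, without MPN replicate 2 the Cyld call ended, and without MPN replicate 3, 3 fell. With a term for sex the calls of Tnfaip3 and Cyld both ended, and with array weights 5 fell. Irak3, which blocks Irak signalling in monocytes and macrophages, and Sigirr, a receptor that dampens Toll-like signals, had log2 fold changes of 0.82 and 0.51 (limma adjusted p of 0.0547 and 0.0525), and both passed as higher in the RPKM values and with array weights.

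Of 18 cytokine and related genes that the receptors are known to induce, 9 were high enough to test. Among these, 5 fell, Il12a and Ccl3 rose and 2 did not pass (median -1.67). Il1b, an inflammatory cytokine, fell from 33.8 ± 5.81 to 1.91 ± 1.19 TPM and Il12a, a subunit of interleukin 12, rose from 3.69 to 12.2 TPM (limma adjusted p of 0.000546 and 0.00167). Ccl3, a chemokine, rose from 2.17 ± 0.414 to 11.2 ± 8.00 TPM (limma adjusted p = 0.0165), a call that ended without MPN replicate 1 or 3, in RPKM and with a term for sex. Tnf did not pass (log2 fold change -0.00, limma adjusted p = 0.995). The chemokine gene Ccl5, fell by 4.65 on the log2 scale and had the smallest p of the list (limma adjusted p = 0.000173). Of 8 cytosolic sensors of nucleic acids, which work outside the endosome, 5 fell and 3 did not pass (median -0.70). With no filter, or without MPN replicate 2 or 3, 3 fell, and the calls of Aim2 and Ddx58, sensors of DNA and RNA, ended under 8 and 4 of the alternatives. Ifih1 and Dhx58, RNA sensors, fell by 1.66 and 2.01 on the log2 scale, and Zbp1, a sensor of Z-form nucleic acids, fell by 4.38. Mavs and Mb21d1 did not pass, with log2 fold changes of 0.21 and 0.03.

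**Figure D5:**
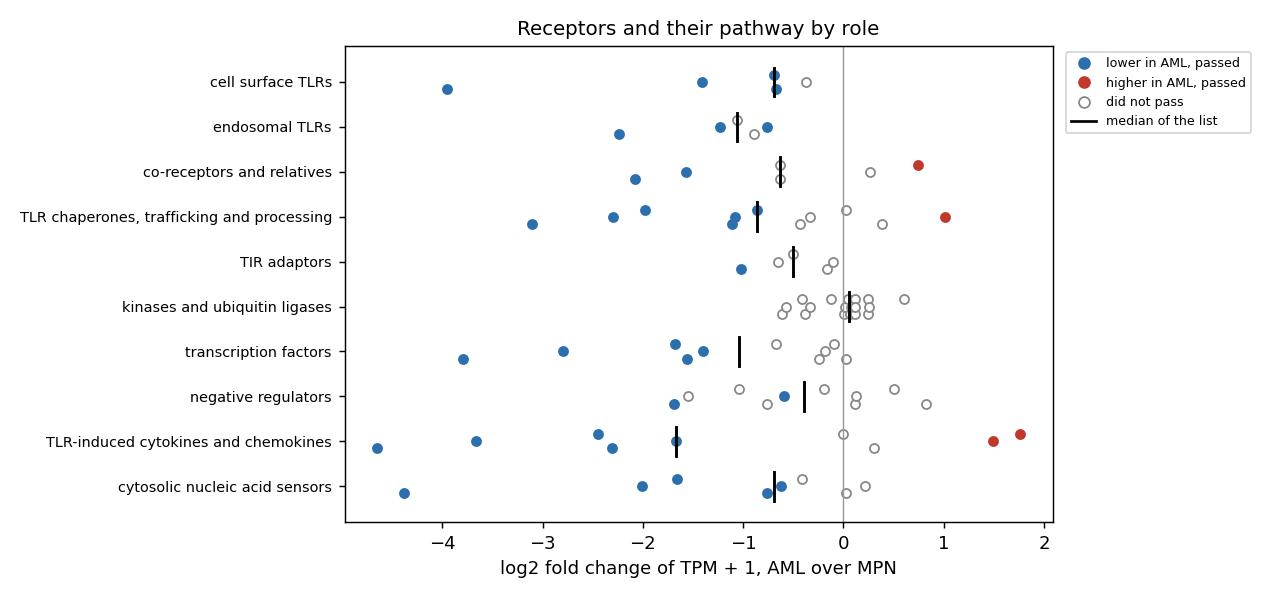
Log2 fold change of TPM + 1, AML over MPN, for each tested gene of the receptor and pathway lists. Filled blue points passed and were lower, filled red points passed and were higher, open points did not pass, and bars give list medians. The 18 kinases and ubiquitin ligases lie between -0.61 and 0.60, with no filled point.

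Likeness to other genes was read as Pearson's r of log2(TPM + 1) over the 6 libraries, among 10097 genes with a mean of at least 5 TPM in the higher group. With so few libraries, and with groups that differ in many genes, high values are common, so the r values are descriptions. Tlr1 was most like Irf4 and Mzb1 (r = 0.998 for both), genes known from B and plasma cells and dendritic cells. Tlr3 was most like Pianp and Cd36 (0.999 and 0.997), of which Cd36, a scavenger receptor and partner of Tlr2 and Tlr6, averaged 60.0 and 81.8 TPM in the AML and MPN mice and did not pass. Tlr9 was most like Med10 and Tdrd7 (0.999 and 0.998), Tlr13 like Ppp3r1 and Tnfrsf11a (0.998 and 0.996), and Tlr2 like Depdc7 and Stard5 (both 0.995). For Tlr6 the genes were Il6st and Cd5 (0.996 and 0.994), for Tlr5 Limd2 and Pfkfb3 (0.997 and 0.995), for Tlr4 Prg3 and Neat1 (0.993 and 0.991), for Tlr8 Lpcat2 (0.996), and for Tlr7 Trappc5 and Foxp4 (both 0.985).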

How the data were processed

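Spleen cells were selected for c-Kit on CD117 beads, per the labels' protocols, and stranded poly-A TruSeq libraries read as pairs of 75 bases from RNA with an integrity number above 8. The authors deposited TPM by gene symbol, in columns named as RSEM gene results per the file headers, 1 per mouse. The authors deposited RPKM by Ensembl identifier, of which 25213 of 25991 matched a symbol. The submitters' processing notes name RSEM, Bowtie2, TopHat2 and the builds mm9 and mm10, without saying which table used which. Positions are from GENCODE M21 (GRCm38) and promoters from RefSeq (GRCm38.p6), for location and letters only.

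Columns were matched to mice by the mouse number in the headers. The labels name separate mice. Replicate numbers follow accession order and pair no mice. A gene was tested if 3 or more of the 6 libraries reached 1 TPM (12223 genes). The test was that of limma (version 3.58.1, R version 4.3.3) on log2(TPM + 1), pseudocount 1, with a trend of variance on mean, two-sided, with Benjamini-Hochberg adjustment over all tested genes and a threshold of 0.05. Fold changes on this scale understate those of low genes. The exact two-sided permutation test of mean TPM gave 0.1, the smallest p that 3 mice against 3 allow, for each of the 7 receptors called, and 0.2, 0.5 and 0.3 for Tlr4, Tlr3 and Tlr7. The RPKM table was analysed as log2(RPKM + 1) with the same filter. Sex was read from Xist and Ddx3y. The 16 alternatives were other pseudocounts (0.1 and 5), filters (none, 5 TPM), scalings (median, quantile), the RPKM table, no trend, array weights, a term for sex, and each of the 6 mice left out, with the same genes tested. The script was tested on simulated data. There, changed genes were drawn from those with a mean log2(TPM + 1) above 2, so low receptors such as Tlr5 and Tlr8 were not covered. Of these, 66% of 100 genes changed 2-fold and 91% of 100 genes changed 4-fold were called, with 7 false calls among unchanged genes. A far smaller share of genes was changed there than was called in the data. A gene that did not pass may thus still differ.

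The receptors, and the lists of pathway genes and cell markers, were chosen with earlier results of these data known. Named were all receptors, of each pathway list the 3 tested genes with the smallest p, and for each receptor the 2 genes most like it in pattern, leaving out predicted genes, antigen receptor segments and date-like symbols. Other list members were named after their values were seen. A few named items are not reported here.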

Additional observations from a re-analysis of the deposited data

How the results depend on the processing

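Over 16 alternatives, 157 values of the receptors were recomputed, of which 156 kept their direction and 129 also their side of the threshold, while 25 lost and 2 gained a call. The exception in direction was Tlr3 with a term for sex, at 0.26 on the log2 scale (limma adjusted p = 0.877); the cause was not tested. Tlr1 passed in all 16. The count of receptors lower in AML, 7 at first, was 3 to 6 when 1 mouse was left out and 1 with a term for sex, which rests on 1 AML mouse and assumes that it varies like the others. It was 5 to 7 in the rest, with 8 receptors tested at a filter of 5 TPM and 9 in RPKM. Of all tested genes, 1224 were lower and 2454 higher. With 1 mouse left out these were 718 to 1402 and 1291 to 2303, with a term for sex 535 and 673, and with array weights, whose estimation stopped before convergence, 2131 were lower. Pathway genes called lower numbered 18 to 27 with 1 mouse left out, and those called higher 2 to 5. With a term for sex they were 14 and 1, and with array weights 30 and 8, from 21 and 4. No paired analysis was possible because the labels give no replicate numbers shared between the groups. TPM keeps no depth, so the precision of values below 1 TPM, such as Tlr5 and Tlr8 in AML, is unknown.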
